A study of Mus musculus with 16 samples.

Results

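The loci of 6 genes that carry cells into or out of the division cycle were examined for binding of RUNX1, MyoD, c-Jun and MyoG in mouse muscle cells: the D-type cyclin genes Ccnd1, Ccnd2 and Ccnd3, the cyclin-dependent kinase inhibitor genes Cdkn1a and Cdkn1c, and Myc. A peak was a member if it overlapped a fixed mm9 window around one of these genes. The windows were chr7:152060000-152180000 for Ccnd1, chr6:127020000-127160000 for Ccnd2, chr17:47580000-47760000 for Ccnd3, chr17:29180000-29280000 for Cdkn1a, chr7:150600000-150690000 for Cdkn1c and chr15:61760000-61880000 for Myc. They covered 750.0 kb and held 165 of the 193322 deposited peaks: 43 of RUNX1, 28 of MyoD, 38 of c-Jun and 56 of MyoG.

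Binding was measured by chromatin immunoprecipitation and sequencing in primary cells from wild-type C57BL/6 mice aged 2 to 3 weeks, grown from satellite cells of the gastrocnemius muscle. RUNX1, MyoD and c-Jun were mapped in proliferating myoblasts after 3 days of culture, against non-immune rabbit serum (RUNX1), mouse IgG (MyoD) and rabbit IgG (c-Jun). MyoG was mapped after 1 further day in low-serum differentiation medium with insulin, in cells labelled as myotubes at 24 hours, against mouse IgG. Each of the 4 ChIP groups and 4 control groups had 2 libraries, and each factor was deposited as 1 peak list without separate replicates, so no spread between cultures and no test could be had. The labels do not give the number of animals behind a library, and without expression values the labelled cell type could not be checked. The list taken as MyoG carries an abbreviation and was assigned by elimination.

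D-type cyclins bind the cyclin-dependent kinases that phosphorylate the retinoblastoma protein and so free E2F factors to start DNA synthesis. Cdkn1a encodes p21 and Cdkn1c encodes p57, inhibitors of these kinases that accumulate when muscle cells leave the cycle, while Myc encodes a growth-promoting factor of cycling cells. Cyclin D3 is the D-type cyclin known to be kept in differentiating muscle, and Cdkn1a is a textbook target of MyoD. RUNX1 is a DNA-binding factor best known from blood, c-Jun is part of the growth-responsive AP-1 complex, and MyoD and MyoG are muscle factors of the helix-loop-helix family that bind E-boxes.

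Each peak carries a score that the authors' peak caller wrote, from 50.01 to 3233 in each list. A score of exactly 3100 recurs many times in each list, below the highest score. Strength is given below as this score and as the score percentile, the percentage of peaks in the same list with a lower score. The lists give no read counts, so the depth is unknown, a missing peak does not show that a factor was absent, and percentiles of different lists are placed side by side without a comparison. The density of a locus was read against tiles, consecutive stretches of the same length laid along chromosomes 1 to 19 and X, of which the share with at least as many peaks is given. Counting just the tiles with a peak of any list multiplied these shares by 1.36 to 1.55.

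The 6 loci fell into dense and sparse ones. Cdkn1a had 10 RUNX1, 10 MyoD, 7 c-Jun and 17 MyoG peaks in 100 kb, and Ccnd3 had 8.33, 5.00, 5.56 and 10.0 peaks per 100 kb in the same order. Over chromosomes 1 to 19 and X, the lists held 1.62 RUNX1, 1.74 MyoD, 1.60 c-Jun and 2.37 MyoG peaks per 100 kb. Ccnd1 lay between, with 5.83, 2.50, 5.00 and 8.33. Myc was uneven, with 9.17 c-Jun peaks per 100 kb against 3.33 for RUNX1 and 4.17 each for MyoD and MyoG. Ccnd2 was near or below the whole-list density for MyoD (0.714), c-Jun (1.43) and MyoG (2.14), and had 2.86 RUNX1 peaks per 100 kb. Cdkn1c had 3.33 RUNX1, 2.22 c-Jun and 3.33 MyoG peaks per 100 kb, and 0 MyoD peaks.

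**Figure D1:**
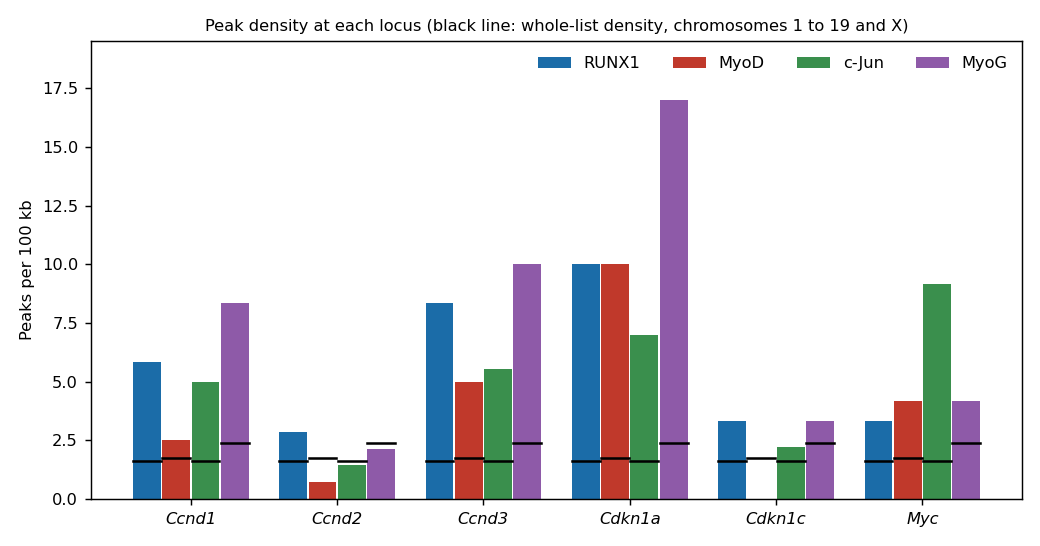
Peaks per 100 kb in the window of each gene (coloured bars, 1 per list) and in the whole list (black lines). The MyoG bar of Cdkn1a reaches 17, against a whole-list density of 2.37, and the c-Jun bar of Myc reaches 9.17, against 1.60.

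Over all 6 loci, members were stronger than their list for MyoD and RUNX1 and weaker for c-Jun. Median scores were 352 against 176 in the whole list for MyoD, 269 against 177 for RUNX1, 207 against 189 for MyoG and 113 against 171 for c-Jun. The top 10% of each list held 8 of 43 RUNX1 peaks (18.6%), 4 of 28 MyoD peaks (14.3%), 5 of 38 c-Jun peaks (13.2%) and 9 of 56 MyoG peaks (16.1%). Of these 26 peaks, none lay at Ccnd2 or Cdkn1c. Peaks of 1 locus lie close together, so these shares rest on 6 places and not on 165 independent sites.

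**Figure D2:**
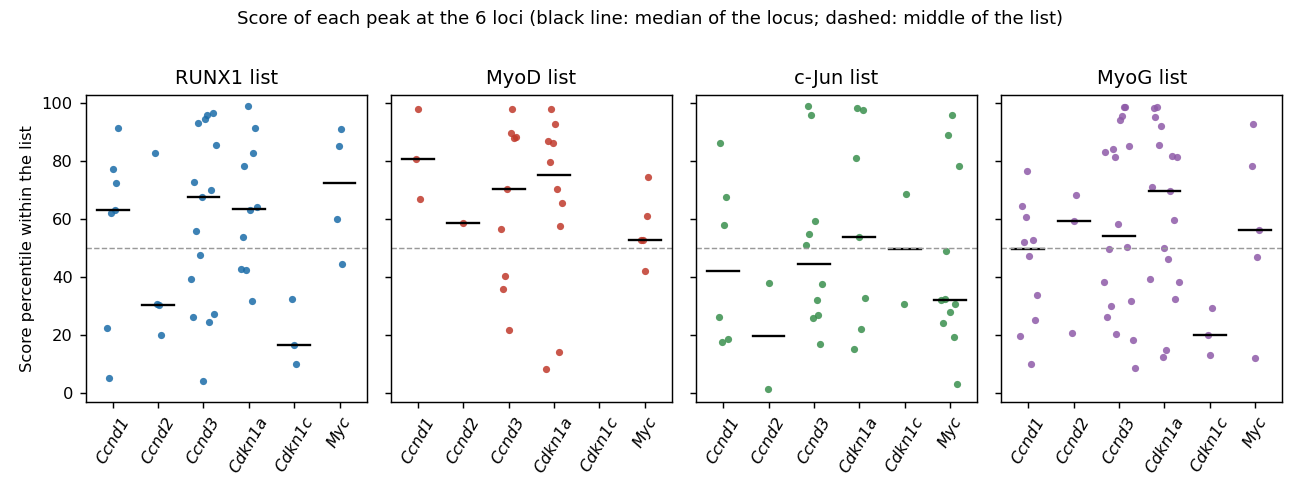
Score percentile of each peak within its own list, by locus. Points are peaks, black lines the median of the locus and the dashed line the middle of the list. MyoD medians lie at 80.7 for Ccnd1, 70.5 for Ccnd3 and 75.2 for Cdkn1a, and the c-Jun median of Myc lies at 32.1.

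Peaks are said to meet if they overlap by at least 1 bp. By this rule, MyoD peaks at these genes met each of the other lists at a larger share than in the whole MyoD list. For RUNX1 this did not hold with centres within 150 bp. A centre is the midpoint of a peak, not its summit, and a limit of 150 bp is harder to meet for wide peaks. A RUNX1 peak met 20 of 28 MyoD peaks (71.4%, against 42.5% of the whole MyoD list), a c-Jun peak met 17 (60.7%, against 41.9%) and a MyoG peak met 26 (92.9%, against 77.1%). Weighting the whole MyoD list to the members' scores in 10 classes, a setting added after seeing the data, moved the whole-list shares to 50.4%, 50.2% and 85.1%. With centres within 150 bp, RUNX1 was left at 6 of 28 MyoD peaks (21.4%, against 23.2% of the whole list), c-Jun at 9 (32.1%, against 24.3%) and MyoG at 20 (71.4%, against 67.6%).

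For RUNX1 peaks the shares with MyoD and c-Jun lay below those of the whole list. MyoD met 17 of 43 RUNX1 peaks (39.5%, against 44.3%), c-Jun also met 17 (39.5%, against 46.8%) and MyoG met 26 (60.5%, against 57.9%). Weighted to the members' scores, the whole-list shares of RUNX1 were 47.0% with MyoD, 50.9% with c-Jun and 61.5% with MyoG. Of 38 c-Jun peaks, RUNX1 met 18 (47.4%, against 46.8%), MyoD 16 (42.1%, against 44.0%) and MyoG 18 (47.4%, against 45.1%). MyoG peaks had RUNX1 at 30 of 56 (53.6%, against 42.4%), MyoD at 26 (46.4%, against 57.7%) and c-Jun at 21 (37.5%, against 32.8%). With centres within 150 bp, all these MyoG shares lay below the whole list. RUNX1 was left at 10 of 56 (17.9%, against 24.6%), MyoD at 20 (35.7%, against 49.7%) and c-Jun at 9 (16.1%, against 18.1%). Under that limit MyoG was left at 10 of 43 RUNX1 peaks (23.3%, against 36.0%). By overlap, MyoG peaks with no myoblast peak numbered 17 (30.4%, against 26.6%).

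Merging overlapping peaks of the 3 myoblast lists gave 66 regions at the 6 loci. All 3 factors shared 11 of them (16.7%, against 13.9% of 83179 regions), and MyoG was present at 35 (53.0%, against 51.5%). Each of the 11 held MyoG, as did 91.9% of the 11533 such regions over the genome. The 11 were divided as 4 each at Cdkn1a and Ccnd3, 2 at Myc and 1 at Ccnd1. MyoD alone made up 3 regions (4.55%, against 22.8%), all at Cdkn1a and Ccnd3. RUNX1 alone made up 20 (30.3%, against 18.6%), of which 9 met MyoG (30.2% of such regions did over the genome). Those of c-Jun alone numbered 15 (22.7%, against 18.5%), of which 2 met MyoG (7.26% over the genome). No region of Myc held RUNX1 alone, in contrast with 8 of 20 at Ccnd3.

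**Figure D3:**
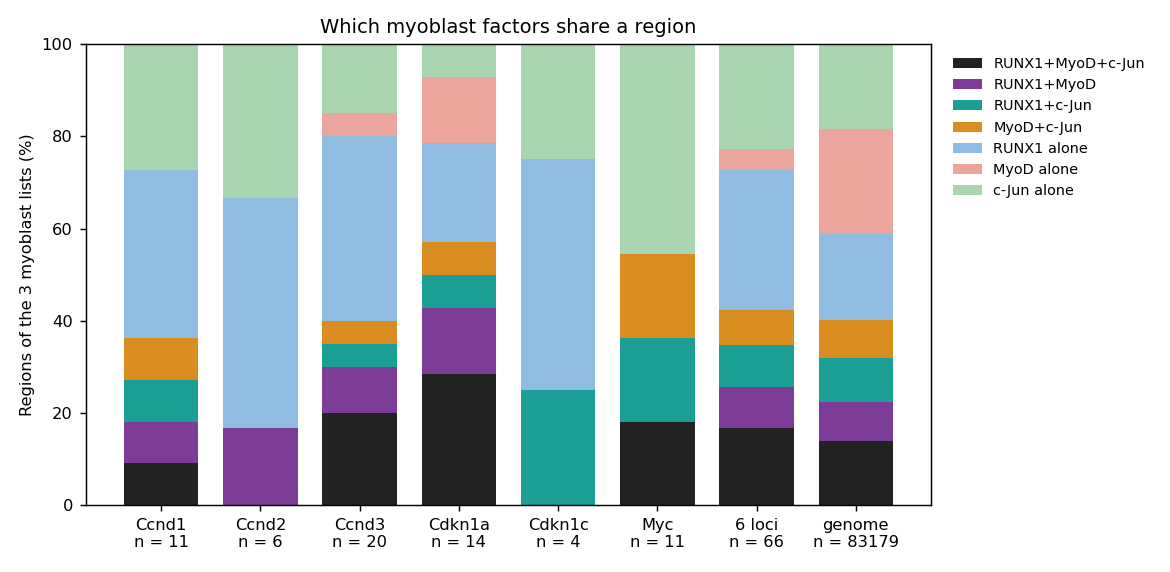
Regions of the 3 myoblast lists by the factors they hold, as a percentage of the regions at each locus, at the 6 loci together and over chromosomes 1 to 19 and X, with the number of regions under each bar. All 3 factors share 28.6% of regions at Cdkn1a and 18.2% at Myc, and MyoD alone makes up 4.55% at the 6 loci against 22.8% over the genome.

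At Ccnd1, the cyclin gene that growth factors switch on, 7 RUNX1, 3 MyoD, 6 c-Jun and 10 MyoG peaks were found. Of 120 kb tiles, 8.56% held at least 7 RUNX1 peaks, 31.3% at least 3 MyoD peaks, 10.2% at least 6 c-Jun peaks and 8.10% at least 10 MyoG peaks. The 3 MyoD peaks had a median at the 80.7th percentile of their list.

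The peak of MyoD at chr7:152120594-152121561 scored 3079, the 98.04th percentile of its list. It lay in the region chr7:152120395-152122275, the one place at Ccnd1 where RUNX1 (269, 62.3rd percentile), MyoD and c-Jun (740.3, 86.2nd percentile) overlapped. The region also held 2 MyoG peaks, the higher at 559 (76.7th percentile). The RUNX1 and c-Jun centres there lay 28.5 bp apart, and the MyoD centre lay 286.0 bp from that of RUNX1.

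From this region a row of 5 RUNX1 peaks extended to position 152129769, with scores of 269, 494, 277, 405 and 1105 in order. The last, at chr7:152128243-152129769 and in the 91.4th percentile, met no peak of any other list. Of the 7 RUNX1 peaks at Ccnd1, 2 met MyoD and 2 met c-Jun, where the whole-list shares were 44.3% and 46.8%. Another 4 of the 7 met neither, which is common: RUNX1 alone made up 15446 regions over the genome, where the list holds 42781 peaks. The other MyoD peaks scored 629 (chr7:152114371-152115007, with a weak RUNX1 peak of 55.2) and 327 (chr7:152177501-152178510, with a c-Jun peak of 73.2). All 3 MyoD peaks at Ccnd1 met a MyoG peak, as did 77.1% of the whole MyoD list.

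Of the 10 MyoG peaks at Ccnd1, 4 met a MyoD peak, where the whole-list share was 57.7%. The highest of the other 6, at chr7:152100912-152101593, scored 329 over a RUNX1 peak of 81.3. Of all 10 MyoG peaks, 4 met no myoblast peak at all (40.0%, against 26.6% of the whole list), with scores up to 281.

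At Ccnd2, which codes for another D-type cyclin, the lists held 4 RUNX1, 1 MyoD, 2 c-Jun and 3 MyoG peaks in 140 kb. Such counts are common: 24.7% of tiles held at least 4 RUNX1 peaks, 60.3% at least 1 MyoD peak, 45.3% at least 2 c-Jun peaks and 39.7% at least 3 MyoG peaks. The site with several factors was chr6:127059191-127060192, where RUNX1 scored 643 (82.8th percentile), MyoD 238 (58.9th percentile) and MyoG 269 (59.5th percentile). The RUNX1 and MyoD centres lay 91.5 bp apart and the MyoD and MyoG centres 38.0 bp apart.

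The c-Jun peaks of Ccnd2 were weak, at 51.5 and 121, and met no peak of another list. The highest RUNX1 peak with neither MyoD nor c-Jun scored 101 (chr6:127100068-127100904). The highest MyoG peak, at chr6:127131285-127131994, scored 382 (68.3rd percentile) and met a RUNX1 peak of 77.1 but no MyoD peak. No region at Ccnd2 held RUNX1, MyoD and c-Jun, which was also so for 68.7% of 140 kb tiles.

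Ccnd3 was the densest of the cyclin genes, where 180 kb held 15 RUNX1, 9 MyoD, 10 c-Jun and 18 MyoG peaks. At least as many RUNX1 peaks were found in 2.28% of tiles, at least as many MyoD peaks in 10.6%, c-Jun in 6.01% and MyoG in 4.35%. Regions with RUNX1, MyoD and c-Jun numbered 4, a count that 5.95% of tiles reached, and each held MyoG as well. In its top 10% by score, the RUNX1 list had 4 of the 15 peaks, the MyoD list 1 of 9, the c-Jun list 2 of 10 and the MyoG list 4 of 18.

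At chr17:47658286-47661205 each factor had a peak above the 94th percentile of its own list. RUNX1 scored 1483 (94.6th percentile) and c-Jun 1652 (96.0th percentile) as single broad peaks over it. MyoD had 2 peaks, of 1140.3 and 3100, and MyoG had 2 peaks, of 1919 and 3100, at matching positions, with the nearest MyoD and MyoG centres 34.5 bp apart. The RUNX1 centre lay 794.5 bp from the nearest MyoD centre and 209.0 bp from that of c-Jun. From c-Jun to the nearest MyoD centre it was 675.5 bp.

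At chr17:47647616-47649303 c-Jun scored 2879 (99.0th percentile) and MyoG 1644 (94.3rd percentile), while RUNX1 stood at 332 and MyoD at 378. At chr17:47678552-47679837 RUNX1 scored 1688 (95.8th percentile), MyoD 1013 and MyoG 3065 (98.7th percentile), and c-Jun was weak at 88.5. There the RUNX1 and MyoG centres lay 2.0 bp apart. At chr17:47729698-47733679 a RUNX1 peak of 3982 bp, the highest of the locus at 1864 (96.7th percentile), overlapped a MyoD peak of 1042, 2 weak c-Jun peaks of 105 and 90.6 and 2 MyoG peaks, the higher of 876. Its centre lay 833.0 bp from that of MyoD.

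Of the 9 MyoD peaks at Ccnd3, 8 met MyoG, where the whole-list share was 77.1%. The exception, at chr17:47651808-47652625, was weak at 82.8 and met a RUNX1 peak of 54.3. RUNX1 peaks without MyoD and c-Jun reached 1287 (chr17:47641592-47642572, 93.2nd percentile), a site with a MyoG peak of 258. MyoG without MyoD reached 779.8 (chr17:47586971-47587762, 83.2nd percentile), at a site with a RUNX1 peak of 89.9. The outermost RUNX1 and MyoG peaks of this locus, of 130.1 and 132, both straddled the start of the window and met each other.

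**Figure D4:**
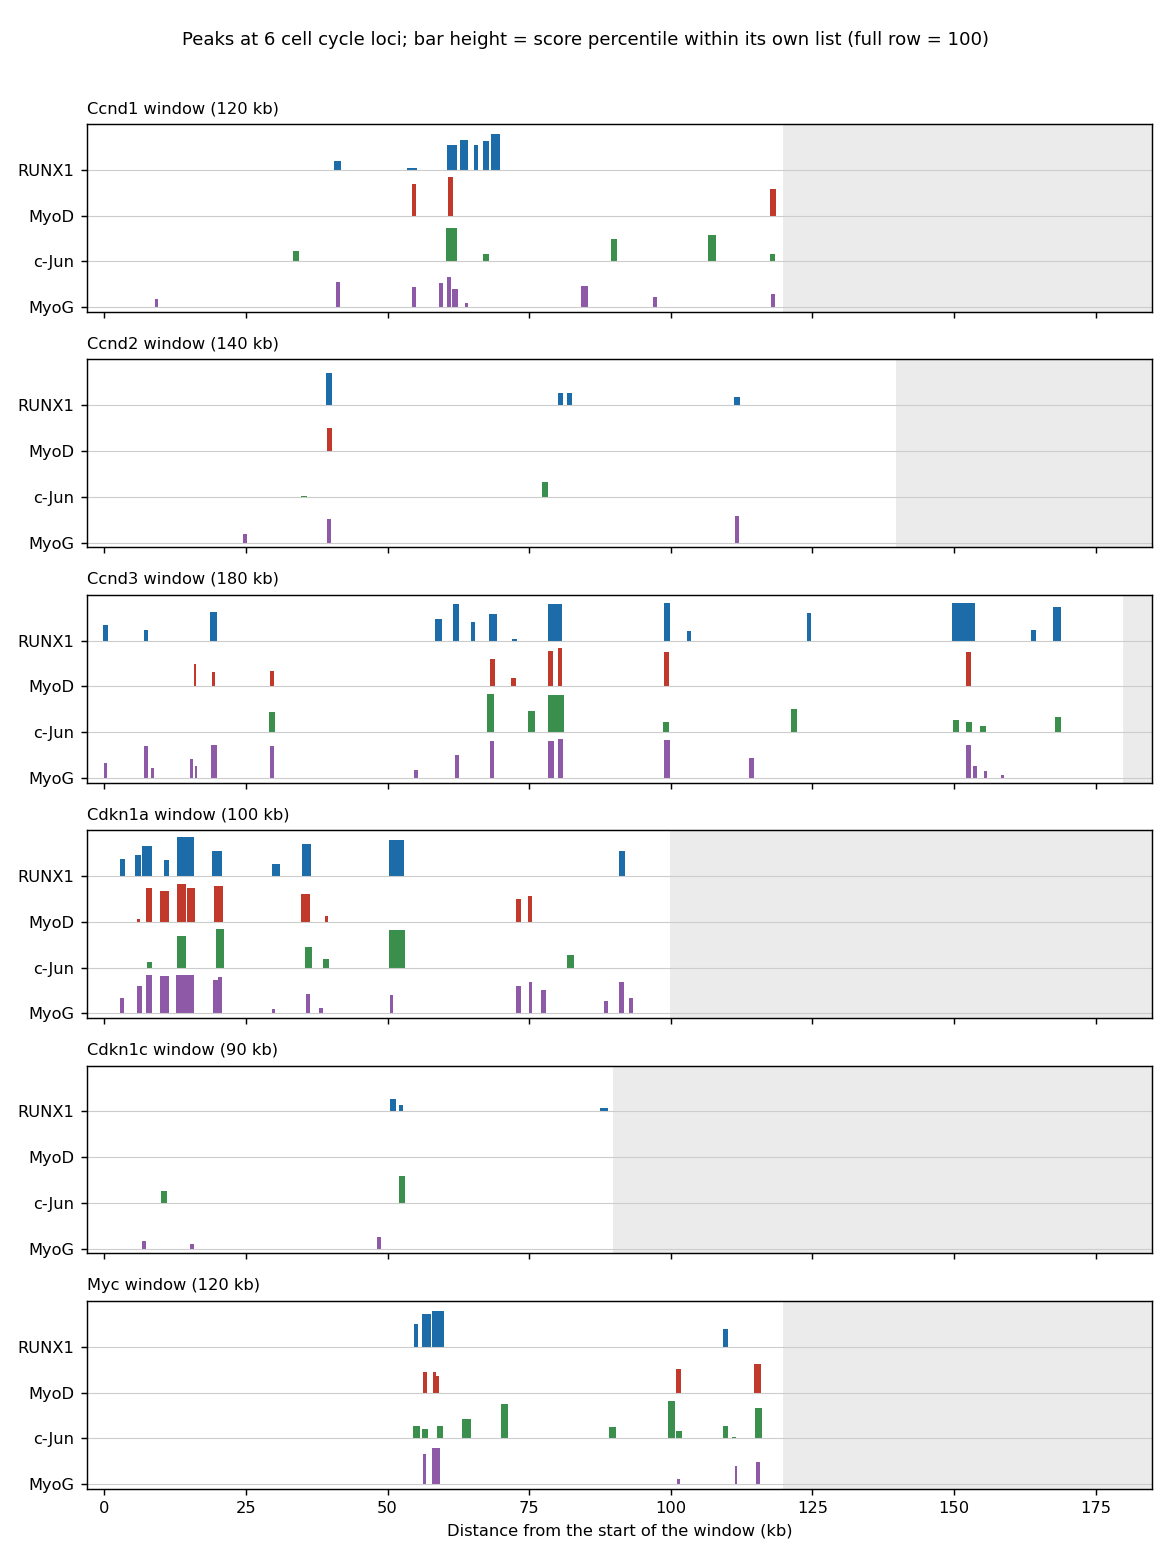
Positions of all 165 peaks in the 6 windows, drawn to scale as kb from the start of the window, with 1 row per list and bar height as the score percentile. The grey area lies outside the window. Tall bars of all 4 lists stack near 80 kb at Ccnd3 and near 14 kb at Cdkn1a. At Myc the shared sites are followed by c-Jun bars, some of which overlap no other list. The MyoD row of Cdkn1c is empty.

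Cdkn1a had the highest density of the 6 loci in the RUNX1, MyoD and MyoG lists, and 100 kb of it held 10 RUNX1, 10 MyoD, 7 c-Jun and 17 MyoG peaks. Of 100 kb tiles, 1.8% held at least 10 RUNX1 peaks (2.71% of tiles with any peak), 1.67% at least 10 MyoD peaks (2.51%), 4.28% at least 7 c-Jun peaks (6.46%) and 0.729% at least 17 MyoG peaks (1.10%). All 10 RUNX1 peaks (57.9% in the whole list) and 9 of 10 MyoD peaks (77.1% in the whole list) met a MyoG peak. The exception among the MyoD peaks was weak, at 70.6 (chr17:29218978-29219495), and met c-Jun at 80.4.

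Regions with RUNX1, MyoD and c-Jun numbered 4 at Cdkn1a, as 2.06% of tiles had or exceeded, and each held MyoG. The strongest was chr17:29192733-29196044, where RUNX1, MyoD and MyoG each had a peak of 3100 and c-Jun scored 564 (81.2nd percentile). RUNX1 and MyoG were each 1 broad peak there, of 3020 and 3238 bp. MyoD was split into peaks of 3100 and 878, and the c-Jun centre lay 7.0 bp from the nearer MyoD centre. The RUNX1 centre lay 849.0 bp from the centre of the weaker MyoD peak and 889.5 bp from that of c-Jun.

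The scores at the other 3 regions follow, each to be read within its own list. At chr17:29198982-29201098 c-Jun scored 2383 (98.3rd percentile), with MyoD at 1498, MyoG at 1389 and RUNX1 at 277. At chr17:29186651-29188510 MyoG scored 2753 (98.2nd percentile) and MyoD 917, with RUNX1 at 518 and c-Jun at 68.4. At chr17:29214765-29216555 RUNX1 scored 640.0, MyoD 376, c-Jun 194 and MyoG 189.6.

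A separate strong site at Cdkn1a lacked MyoD. At chr17:29230247-29233134 RUNX1 scored 1097 (91.3rd percentile) and c-Jun 2171 (97.8th percentile), with centres 92.5 bp apart. MyoG at this site was of 167 (46.3rd percentile), and its centre lay 894.5 bp from that of RUNX1. Further along the window, MyoD peaks of 227 and 308 met MyoG peaks of 410 and 724, with centres 9.0 and 26.5 bp apart and without RUNX1 or c-Jun. The highest MyoG peak without MyoD was of 712 (chr17:29270970-29271709) and met the highest RUNX1 peak that had neither MyoD nor c-Jun, of 291.

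Promoter sequences were at hand from RefSeq (build GRCm38.p6) for 2 of the 6 genes, Cdkn1a and Ccnd3, with 2 transcription starts each. GRCm38.p6 positions cannot be laid on the mm9 peaks. These sequences therefore show letters that match the E-box at the Cdkn1a starts, not where a peak lay. Whether MyoD or MyoG bound them was not tested. Over 250 bases before and 50 after each start, both strands were searched for the E-box CANNTG and its form CAGCTG (72.3% and 16.3% of 32851 promoters), the RUNX motif TGTGGT (16.8%), the AP-1 motif TGANTCA (7.81%) and the related TGACGTCA (1.79%). Each CAGCTG is also counted as a CANNTG. The first Cdkn1a start had 1 E-box, a CAGCTG that begins at base 38 after the start. The second had 2, a CAGGTG that begins 187 bases before the start and a CAACTG across the start itself. No other motif was found at Cdkn1a, and none of the 5 was found at the Ccnd3 starts, which says nothing of sites outside these letters. The CAACTG across the second start runs past the end of the stretch printed here and is not marked. Capitals mark the E-boxes that lie whole within the 2 stretches, both on the + strand: chr17:29090999-29091028 (bases 21 to 50 after the first start) and chr17:29093519-29093768 (the 250 bases before the second start).
Cdkn1a first start: tgatgatacccaactacCAGCTGtggggtg
Cdkn1a second start: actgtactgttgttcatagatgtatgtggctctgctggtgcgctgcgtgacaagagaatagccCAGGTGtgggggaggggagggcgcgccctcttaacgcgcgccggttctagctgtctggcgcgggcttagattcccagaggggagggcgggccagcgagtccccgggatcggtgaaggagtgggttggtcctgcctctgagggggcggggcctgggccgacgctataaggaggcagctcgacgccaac

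At Cdkn1c, the other inhibitor gene, 3 RUNX1, 0 MyoD, 2 c-Jun and 3 MyoG peaks lay in 90 kb. A window with 0 MyoD peaks is common, at 48.1% of tiles and 19.9% of tiles with any peak. At least 3 RUNX1 peaks were held by 22.0% of tiles (34.0% of tiles with any peak), at least 2 c-Jun peaks by 34.6% (53.4%) and at least 3 MyoG peaks by 29.6% (45.7%). All RUNX1 and MyoG peaks were weak: RUNX1 scored 106, 70.7 and 61.2, and MyoG 79.0, 66.4 and 101, all below the 33rd percentile of their lists.

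The highest peak in the Cdkn1c window belonged to c-Jun, at chr7:150652003-150653105 with 322 (68.6th percentile), and it met the RUNX1 peak of 70.7. The highest RUNX1 peak, chr7:150650458-150651548, met no other list, and neither did any MyoG peak, the highest being chr7:150648221-150648875. In the whole MyoG list, 26.6% of peaks met no myoblast peak. The lack of MyoD peaks and of a strong MyoG peak depended on where the window ended. The flanks of 50 kb on each side held 4 RUNX1, 3 MyoD, 2 c-Jun and 4 MyoG peaks. At chr7:150587039-150588321, 11.7 kb before the window, MyoG scored 2635 (97.97th percentile), MyoD 571, RUNX1 209.7 and c-Jun 155. With windows widened by 50 kb on each side, a setting chosen after seeing the data, Cdkn1c had 1 region with the 3 myoblast factors in place of 0.

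At Myc c-Jun had 11 peaks in 120 kb, a count that 1.00% of tiles reached (1.46% of tiles with any peak). RUNX1 had 4 peaks, MyoD 5 and MyoG 5, counts reached by 21.3%, 16.9% and 23.4% of tiles. Most c-Jun peaks at Myc were weak, with a median of 104 at the 32.1st percentile of the list. Those with no other myoblast factor numbered 5 of the 11. Such sites are common: c-Jun alone made up 15360 regions over the genome, where the list holds 42134 peaks. Among the 5 were the highest, 1640.1 at chr15:61859499-61860668 (96.0th percentile), and one of 882 at chr15:61829928-61831188 (89.0th percentile), neither of which met MyoG. Just past the end of the highest, a MyoD peak of 260 (chr15:61860828-61861704) met a MyoG peak of 65.3 and another c-Jun peak, of 75.15.

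The RUNX1 peaks of Myc all met c-Jun, 4 of 4 (46.8% in the whole list), and the 5 MyoD peaks all met MyoG (77.1% in the whole list). Regions with all 3 myoblast factors numbered 2 and lay next to each other. At chr15:61817836-61820017 RUNX1 scored 1073 (91.0th percentile) and MyoG 1426 (92.7th percentile), over MyoD peaks of 194 and 140.2 and a c-Jun peak of 105. At chr15:61816024-61817599 RUNX1 scored 738 and MyoG 611, with MyoD at 193 and c-Jun at 84.9. The MyoD peaks at both sites stood at or below the 53rd percentile of the MyoD list.

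Near the end of the Myc window MyoD and c-Jun met without RUNX1, at chr15:61874733-61876114 with MyoD at 458 (74.5th percentile, the highest of the locus), c-Jun at 493 and MyoG at 237. No MyoD peak at Myc lacked MyoG, and 1 MyoG peak lacked MyoD (172 at chr15:61871253-61871772, with a c-Jun peak of 53.2). Beyond the window, at 30.3 kb, c-Jun scored 2890.0 (chr15:61910252-61911892, 99.0th percentile) and met MyoD (563), MyoG (1011) and RUNX1 (149).

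The shared regions were broad, and the midpoints of the peaks, used as centres, were often apart within them. Midpoints of wide peaks can lie far apart, so these gaps do not show that the factors bound at separate positions. RUNX1 peaks with overlap to MyoD as well as c-Jun numbered 11 and had a median width of 1761 bp, against 1027 bp for 11629 such peaks over the genome. With centres required to lie within 150 bp of the RUNX1 centre for both partners, 0 of the 11 were left, against 37.4% over the genome. RUNX1 and MyoD centres lay a median of 293 bp apart over 20 overlapping pairs (132 bp over the genome), from 1.5 to 885 bp, and RUNX1 and c-Jun centres 227 bp over 18 pairs (143 bp). MyoD and c-Jun centres were at 119 bp over 17 pairs, next to 118 bp over the genome. MyoD and MyoG centres lay 82.0 bp apart over 28 pairs (55.5 bp), and 20 of the 28 lay within 150 bp (71.4%, against 85.2% over the genome). Overlap between lists made from separate libraries does not show that factors were on the same DNA molecule, and MyoG came from another stage, so stage and factor cannot be told apart.

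In the GRCm38.p6 gene order, Cdkn1a lies between the non-coding RNA gene Trp53cor1 and Rab44, Ccnd3 between Taf8 and Bysl, Ccnd2 beside Tigar, Cdkn1c beside Kcnq1 and Myc beside the non-coding RNA gene Pvt1. No mm9 annotation was used here. Whether a peak lay in a promoter, an exon or an intron, and which of these genes it was nearest to, was therefore not analysed here.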

How the data were processed

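The authors deposited 1 peak list per factor with 5 columns: chromosome, start, end, a peak name that begins with MACS, and a score. The score is as the authors' peak caller wrote it, and its scale is not given in the sources used here. Bowtie, CASAVA 1.7.0 and 1.8.2 and the build mm9 are named per the submitters' processing notes. Nothing read here states the peak caller's settings, its control or any pooling of replicates, and depth per library is unknown. The control samples have no peak list and were not analysed here.

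Starts were moved to 1-based positions. Chromosomes 1 to 19 and X were used. Peaks were counted as shared with an overlap of at least 1 bp, and regions were made by merging RUNX1, MyoD and c-Jun peaks. Tiles ran from the first base to the last deposited peak of each chromosome. The windows, lists, tests and naming rule were chosen with earlier results of these data known. The rule named, per locus, the highest peak of each list, up to 5 regions with all 3 myoblast factors, the highest MyoD peak without MyoG, MyoG peak without MyoD and RUNX1 peak without MyoD and c-Jun. Peaks beyond this rule were picked after their values were seen. Alternatives were a shared span of 50% of the shorter peak, centres within 150 bp, centres inside the window, scores of at least 100, the stronger 50% of each list, moved tiles and tiles with a peak. Wider windows and score-weighted shares were added after seeing the data. The overlap code was tested on simulated data. Other cell cycle genes were not analysed here for want of an mm9 annotation. Overlaps were computed in Python 3.11.15 with pandas 2.3.3 and numpy 2.4.6, and figures were drawn with matplotlib 3.10.9.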

Additional observations from a re-analysis of the deposited data

How the results depend on the processing

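Of 33 alternatives to the counts over the 6 loci, 21 stayed within 1.5 times and 12 did not. Requiring centres within 150 bp lowered the RUNX1 peaks that met MyoD from 17 to 6 and those that met c-Jun from 17 to 5. It also lowered the MyoD peaks that met c-Jun from 17 to 9 and the regions with all 3 myoblast factors from 11 to 0. With peaks above their list's median score alone (the stronger 50%, fewer peaks by construction) there were 25 RUNX1, 16 c-Jun and 31 MyoG peaks, 7 RUNX1 and 8 MyoD peaks that met c-Jun, and 6 regions with all 3 factors. Scores of at least 100 left 25 c-Jun peaks and 10 MyoD peaks that met c-Jun. The MyoD peaks that met MyoG stayed between 19 and 26 under the 4 alternatives run for them. Of 122 alternatives to single loci, tile shares and other pairs, 68 stayed and 54 moved. Among tile shares, 30 of 60 left the 95% binomial interval of the main share, which covers counting error of tiles alone. All 30 came from dropping tiles without a peak, which changes each share by construction. Moving the tiles by 50% of their length left every share inside its interval. The regions with all 3 factors numbered 15 with windows widened by 50 kb. No paired analysis was possible because each factor has 1 list in which the replicates are not separate. Leaving out replicates in turn was not run, for that reason. Unknown depth limits what a missing peak can show.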

Other observations

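Strong sites also lay just outside some windows. Within 50 kb of the Cdkn1a window were 8 RUNX1, 3 MyoD, 3 c-Jun and 8 MyoG peaks. At chr17:29168841-29170027, 10.0 kb before that window, RUNX1 scored 2663 (98.5th percentile) over a c-Jun peak of 177 and a MyoG peak of 59.7, without MyoD. On the other side, at 9.2 kb, a site with all 4 factors had MyoG at 2510.1 (97.7th percentile), RUNX1 at 631, MyoD at 605 and c-Jun at 61.2. Near Ccnd1, a RUNX1 peak of 905 (88.6th percentile, chr7:152216463-152217267) met a weak MyoG peak of 115 and neither MyoD nor c-Jun. The flanks of Ccnd2 held 1 RUNX1, 1 c-Jun, 1 MyoG and 0 MyoD peaks, the highest of 159. These peaks were singled out after their values were seen.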
